A study of Mus musculus with 9 samples.

Results

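The genes described here encode the voltage-gated sodium and calcium channels of the mouse and their auxiliary subunits. They were chosen by symbol: every probe set (a transcript cluster, the array's unit for 1 gene) whose gene symbol starts with Cacna, Cacnb or Cacng, or is made of Scn, digits and a or b. The rule found 39 genes on 40 of the 22206 clusters of the array, since Scn4a has a coding and a noncoding cluster. Of these genes, 19 encode pore-forming alpha subunits and 20 encode auxiliary subunits. The rule used no measured value. It passes over the cluster that the array names Scn2a1, an older symbol of Scn2a, which encodes the alpha subunit NaV1.2; its values are given beside those of the other sodium channel genes and it is counted among none of them.

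A voltage-gated channel opens when the membrane is depolarised. In neurons the sodium channels carry the inward current that starts and propagates the action potential, and they are gathered at the axon initial segment by ankyrin-G. Calcium channels turn the same depolarisation into calcium entry, which releases transmitter at terminals, drives dendritic signals and, for the low-threshold T-type channels, supports burst firing. In both families 1 large alpha subunit forms the pore, and smaller subunits set how many channels reach the membrane and how they open and close.

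RNA from the hippocampus of male ICR mice, an outbred stock, aged 8 weeks, was measured on Clariom S arrays, which give 1 value per gene and do not separate splice forms. The vehicle mice inhaled 1% Tween 80, a detergent used to disperse oils, for 7 days by whole-body inhalation from an aroma diffuser. The other mice inhaled 1% or 10% linalyl acetate (LA), the fragrant ester that is a main component of lavender oil, over the same 7 days. A tail suspension test followed 30 min of inhalation, and each of the 3 groups has 3 arrays. The labels do not say whether the LA mice also received Tween 80. The free-text descriptions of 5 samples tell of oral dosing, 3 of them with an endotoxin injection, and the series' design text names a human cell line; both contradict the titles and source names, which were followed. The RNA comes from whole tissue, so fewer cells of a type and less RNA per cell cannot be told apart. All 8 general neuron markers, including Rbfox3, Snap25 and Map2, passed the filter on low signal, as did all 6 markers of dentate granule cells and all 7 of CA1 and CA3 pyramidal cells.

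The values were deposited in 2 versions, a table of log2 signals and the series matrix, and the third vehicle array does not match between them. Its correlation over all clusters was 0.981, against at least 0.999 for every other array. Of the 40 channel clusters, 15 differed by more than 0.5 log2 between the versions on that array and 0 did so on any other. The labels and file headers do not tell which version is right. Values are therefore from the signal table unless the series matrix is named, and the series matrix value is given beside the difference of a named channel gene from vehicle. The comparison of the doses uses that array for the estimate of spread but not for the difference. The medians of the 9 arrays lay between 6.84 and 6.88 in the signal table.

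Above the 40th percentile of mean signal, 31 of the 40 channel clusters and 13323 of all clusters were kept. The kept channel clusters averaged 6.49 to 15.64 log2 units over the 9 arrays and the 9 others averaged less than the limit of 5.98. Most of those 9 belong to genes known from other tissues. Cacna1s and Cacng1 encode subunits of the skeletal muscle channel, Cacna1f and Cacna2d4 subunits of the retinal channel, and Scn10a and Scn11a the alpha subunits of peripheral sensory neurons. Scn7a, a sodium-sensing channel of glia, averaged 6.49 and was the kept channel gene nearest to the limit. Cacng6 and the noncoding cluster of Scn4a were also below it.

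In LA hippocampus the sodium channel genes Scn9a and Scn3a read higher than in vehicle, with a log2 difference of up to 0.66 for Scn9a at 1% LA. Scn8a and the calcium channel genes Cacna1a, Cacna1g and Cacnb1 read lower, with a log2 difference down to -0.99 for Cacna1g at 10% LA. No channel gene passed a Benjamini-Hochberg adjusted p of 0.05 in limma in any comparison, and no cluster of the array did, so that the share called was 0% for members and array alike. The smallest adjusted p among the channel genes was 0.356 at 1% LA, 0.312 at 10% LA, 1 between the doses and 0.203 for both doses against vehicle. At an unadjusted p under 0.05, 5 of the 31 kept clusters differed at 1% LA, where 11.9% of all kept clusters did. Of these, 2 were higher and 3 lower, against 6.33% higher and 5.6% lower on the array. At 10% LA 5 differed, against 13.9% of all kept clusters, with 0 higher and 5 lower, against 6.79% higher and 7.12% lower. With both doses pooled against vehicle 7 differed, against 17.2%, with 2 higher and 5 lower, against 8.85% higher and 8.38% lower. Between 10% and 1% LA 3 differed, against 2.03%, and all 3 were lower at 10%, against 1.07%. Groups that did not overlap were found for 8 channel clusters at 1% LA, 3 higher and 5 lower, and for 8 at 10% LA, 2 higher and 6 lower, against 14.4% and 14.6% of all kept clusters. By direction the array had 7.01% higher and 7.43% lower at 1% LA and 6.76% higher and 7.87% lower at 10% LA. The 2 doses were compared with the same 3 vehicle arrays, so their results are not independent.

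The counts move with single arrays and with the version of the values. At 1% LA the count of 5 at an unadjusted p became 8 when vehicle replicate 1 was left out. It became 2 when vehicle replicate 2, vehicle replicate 3 or the first 1% LA replicate was left out. At 10% LA it was 3 without vehicle replicate 3 and 2 without the first 10% LA replicate. For both doses it was 4 without vehicle replicate 3, and between the doses it was 1 without the first or the second 1% LA replicate. The shares of all kept clusters in these fits are not given here. Whether the channel counts moved more than those of the array therefore cannot be told from them. In the series matrix Scn9a alone passed at 1% LA, Cacna1g and Cacnb1 at 10% LA, and Cacnb1 alone for both doses, which makes 1, 2 and 1 channel genes where 4.81%, 5.74% and 6.42% of all kept clusters passed.

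**Figure D1:**
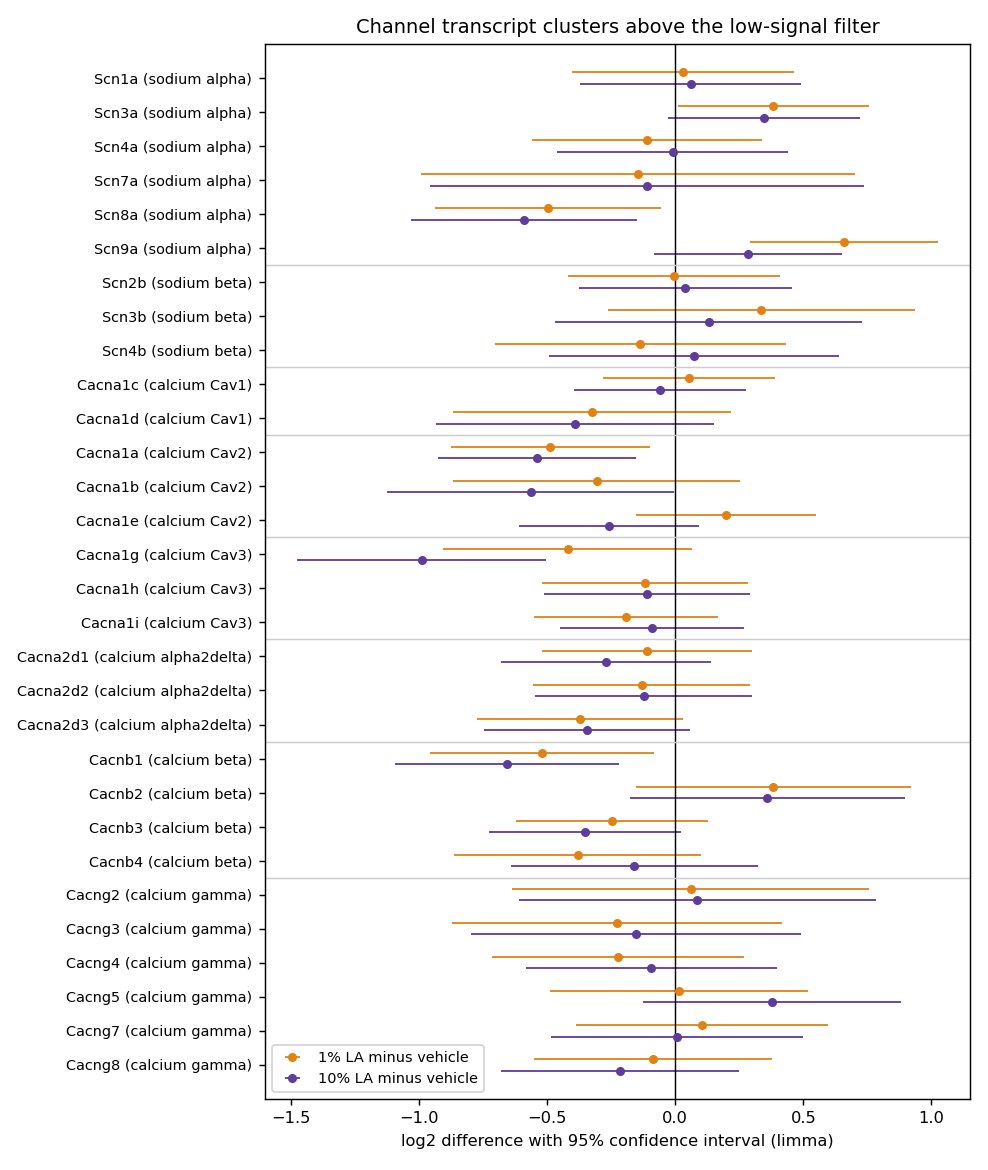
Log2 difference from vehicle (horizontal axis, log2 units) of kept channel clusters at 1% LA and 10% LA in the signal table, with 95% intervals of the limma fit over 9 arrays. Scn9a lies farthest to the right at 1% LA, at 0.66, and Cacna1g farthest to the left at 10% LA, at -0.99.

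Among the pore-forming sodium channels, Scn9a and Scn3a were higher and Scn8a lower in LA hippocampus than in vehicle, with groups that did not overlap in the signal table, and none passed the adjusted test. Scn9a (TC0200003680.mm.2) encodes NaV1.7, known for setting the threshold of pain-sensing neurons. It read 8.02, 7.92 and 7.82 in vehicle, 8.64, 8.69 and 8.41 at 1% LA and 8.38, 8.18 and 8.05 at 10% LA, in log2 signal. All 6 LA arrays lay above all 3 vehicle arrays, and the 1% arrays lay above the 10% arrays. The log2 difference from vehicle was 0.66 ± 0.17 (SE) at 1% LA (unadjusted p = 0.00215, adjusted p = 0.356) and 0.28 ± 0.17 at 10% LA (unadjusted p = 0.118). The series matrix puts the third vehicle array at 8.36, inside the range of the LA arrays, and the differences at 0.47 and 0.12.

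Scn3a (TC0200003666.mm.2) encodes NaV1.3, the alpha subunit that is most abundant in the developing brain. Its log2 signal was 10.85, 10.62 and 10.76 in vehicle, 11.33, 11.07 and 10.98 at 1% LA and 11.00, 11.01 and 11.26 at 10% LA. Every LA array was above every vehicle array, and the 2 doses overlapped. The difference was 0.38 ± 0.17 (SE) at 1% LA and 0.35 ± 0.17 at 10% LA, with adjusted p of 0.406 and 0.391 in limma. The third vehicle array read 11.05 in the series matrix, within the range of the LA arrays, and the differences there were 0.28 and 0.26.

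Scn8a (TC1500001056.mm.2) encodes NaV1.6, the main channel of the mature axon initial segment and node of Ranvier. It read 11.71, 11.89 and 12.20 in vehicle, 11.44, 11.28 and 11.59 at 1% LA and 11.02, 11.47 and 11.54 at 10% LA. The LA arrays all lay below the vehicle arrays in the signal table, the highest LA array at 11.59 against 11.71 for the lowest vehicle array. The difference was -0.50 ± 0.20 (SE) at 1% LA and -0.59 ± 0.20 at 10% LA (adjusted p = 0.385 and 0.312). Of the 3 genes it depends most on the version of the third vehicle array, which read 12.20 in the signal table and 10.99 in the series matrix, and in the series matrix the differences were -0.13 and -0.24.

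Scn2a1 (TC0200000953.mm.2), the cluster of NaV1.2, which is dense in unmyelinated axons and in the initial segments of young neurons, read 13.09, 12.58 and 12.58 in vehicle. At 1% LA it read 13.14, 13.26 and 13.27, and at 10% LA 13.20, 13.20 and 13.41. Its LA arrays lay above all vehicle arrays, the first of which stood above the other two. The difference was 0.47 ± 0.18 (SE) at 1% LA and 0.52 ± 0.18 at 10% LA, with adjusted p of 0.378 and 0.312. The third vehicle value was 13.03 in the series matrix, near the first. There too the LA arrays lay above all vehicle arrays, by as little as 13.13 against 13.08. The differences there were 0.32 and 0.38 (unadjusted p = 0.105 and 0.0601 in limma). In the signal table without the first vehicle array it was 0.69 at 10% LA, with an adjusted p of 0.0482 in limma. The share of all kept clusters that passed in that fit is not given here. Scn1a, the NaV1.1 subunit on which fast-spiking interneurons rely, differed by 0.03 and 0.06 at 1% and 10% LA, with 95% intervals of -0.40 to 0.46 and -0.37 to 0.49, and by 0.02 and 0.06 in the series matrix. The coding cluster of Scn4a, the skeletal muscle channel, differed by -0.11 and -0.01, and by 0.06 and 0.18 in the series matrix. Scn7a differed by -0.15 and -0.11, and by 0.42 and 0.48 in the series matrix.

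Scn3a, Scn2a, Scn1a, Scn9a and Scn7a lie together on chromosome 2, in a stretch of 8 protein-coding genes in RefSeq order. Between Scn2a and Scn1a stand Csrnp3, Galnt3 and Ttc21b, which encode no channel. Their log2 differences at 1% LA were -0.07, 0.44 and 0.36, with unadjusted p of 0.729 for Csrnp3, 0.12 for Galnt3 and 0.13 for Ttc21b, and in the series matrix they were -0.05, 0.08 and 0.31. The channel genes of the stretch ranged from -0.15 ± 0.39 (SE) for Scn7a to 0.66 ± 0.17 for Scn9a at 1% LA in the signal table. Scn7a alone of them was negative there, by less than its SE. They differed by 0.28 (Scn3a), 0.32 (Scn2a1), 0.02 (Scn1a), 0.47 (Scn9a) and 0.42 (Scn7a) in the series matrix, all positive. The values of neighbouring channel genes thus varied in size in both versions, and a difference in sign among them is not shown.

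**Figure D2:**
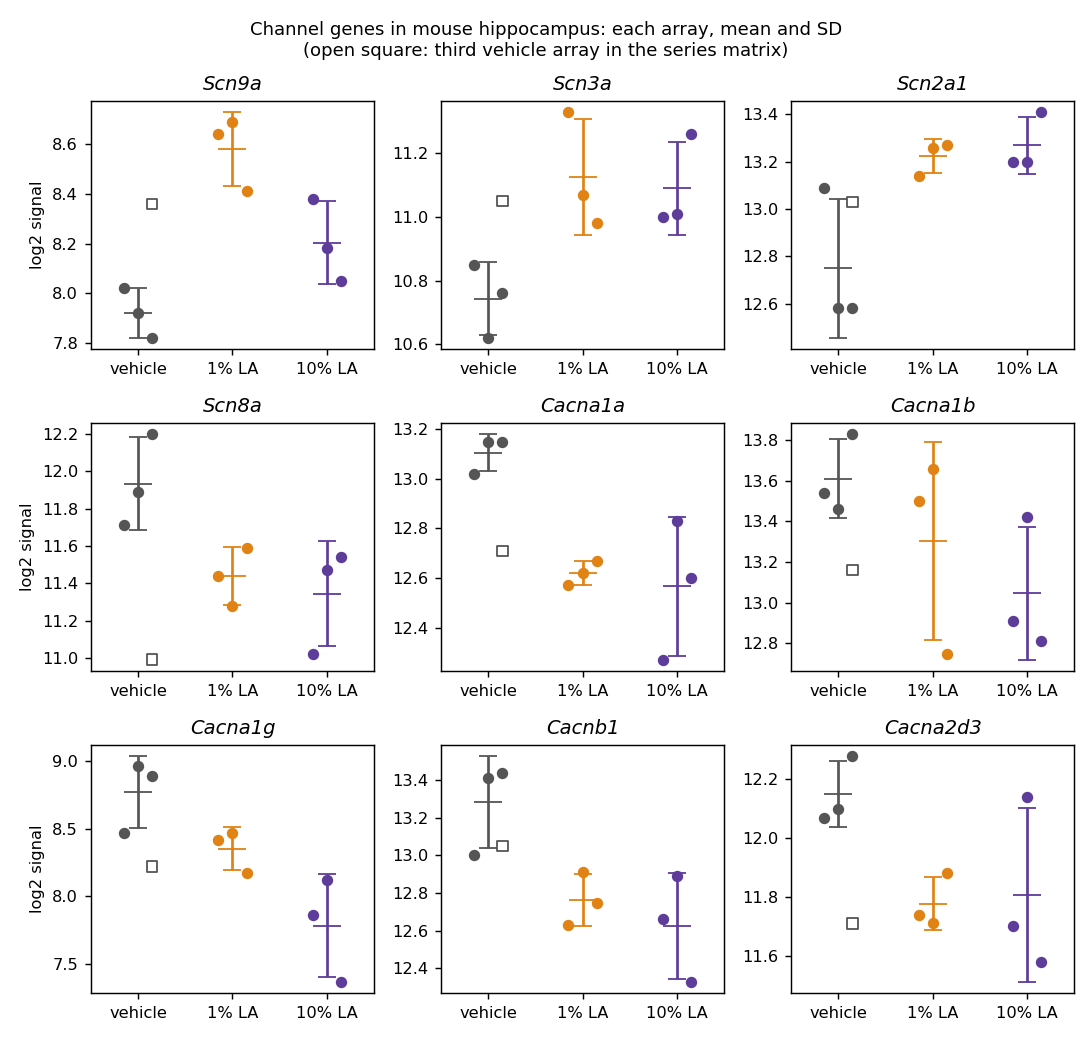
Log2 signal (vertical axis) of 9 channel genes on each of the 9 arrays in vehicle, 1% LA and 10% LA hippocampus, with group mean and SD, and the third vehicle array as the series matrix gives it as an open square. For Scn8a the square lies at 10.99, below all arrays of the 1% LA group.

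The 4 beta subunits of sodium channels, adhesion proteins that bind the alpha subunit from outside, had an unadjusted p under 0.05 in 0 of 4 genes at either dose. Scn3b read 16.10, 15.33 and 15.02 in vehicle, a spread wider than its difference of 0.34 ± 0.27 (SE) at 1% LA, which was 0.02 in the series matrix. At 1% and 10% LA, Scn2b differed by -0.00 and 0.04 and Scn4b by -0.14 and 0.07. Scn2b differed by -0.18 and -0.06 in the series matrix and Scn4b by -0.25 and 0.05.

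Start-site sequences are shown for 4 of these genes, since Scn9a and Scn2a were higher and Scn8a and Cacnb1 lower in LA arrays. The arrays measured no binding at these sites. RefSeq promoters (windows of 300 bases across the start, build GRCm38.p6) were found for 29 of the 39 genes, Cacna1a, Cacna1g and Scn3a not being among them. Capitals mark the TATA box letters TATAAA or the GC box letters GGGCGG on either strand. The Scn9a promoter is chr2:66634913-66635212 on the minus strand, the second Scn2a start chr2:65668436-65668735 on the plus strand, the first Scn8a start chr15:100870395-100870694 on the plus strand and the first Cacnb1 start chr11:98022578-98022877 on the minus strand.
Scn9a: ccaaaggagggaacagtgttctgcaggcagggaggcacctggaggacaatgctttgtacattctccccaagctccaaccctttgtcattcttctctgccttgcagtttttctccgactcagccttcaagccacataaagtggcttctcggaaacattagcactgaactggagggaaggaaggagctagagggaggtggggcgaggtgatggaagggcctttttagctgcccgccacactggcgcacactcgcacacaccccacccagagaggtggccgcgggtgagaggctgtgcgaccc
Scn2a: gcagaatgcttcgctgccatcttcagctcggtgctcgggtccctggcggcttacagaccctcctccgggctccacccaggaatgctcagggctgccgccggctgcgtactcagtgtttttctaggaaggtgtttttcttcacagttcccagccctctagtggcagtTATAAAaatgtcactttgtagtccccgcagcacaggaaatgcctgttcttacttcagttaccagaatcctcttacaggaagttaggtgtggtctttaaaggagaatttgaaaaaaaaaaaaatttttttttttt
Scn8a: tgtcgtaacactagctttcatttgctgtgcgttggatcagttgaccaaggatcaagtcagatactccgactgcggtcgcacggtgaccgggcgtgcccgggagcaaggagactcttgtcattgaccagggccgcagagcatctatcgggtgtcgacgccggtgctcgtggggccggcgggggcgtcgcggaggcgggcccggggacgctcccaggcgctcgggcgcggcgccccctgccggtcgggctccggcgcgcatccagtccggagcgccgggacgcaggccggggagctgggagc
Cacnb1: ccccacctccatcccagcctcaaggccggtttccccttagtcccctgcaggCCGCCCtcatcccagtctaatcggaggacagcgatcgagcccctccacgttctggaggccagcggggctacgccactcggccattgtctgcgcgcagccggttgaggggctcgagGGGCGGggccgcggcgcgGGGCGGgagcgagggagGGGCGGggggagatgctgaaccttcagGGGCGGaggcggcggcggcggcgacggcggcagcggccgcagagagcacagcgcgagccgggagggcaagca
The G and C content of the printed windows is 57.3% for Scn9a, 47.7% for Scn2a, 70.0% for Scn8a and 73.7% for Cacnb1. The median is 59.67% over the promoters of the channel genes and 52.67% over all 32851 promoters. The printed Cacnb1 window holds 5 GC boxes, that of Scn2a 1 TATA box, and those of Scn9a and Scn8a neither set of letters. Starts not printed are the first of Scn2a (33.0% G and C), the second of Scn8a (53.3%) and the second of Cacnb1 (59.3%). These hold neither set of letters. Over the 39 promoters of the channel genes, 16 (41.0%) hold GGGCGG and 1 holds TATAAA, against 35.7% and 13.6% of all promoters, and 0 hold the E-box letters CACGTG, against 7.15%.

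Among the pore-forming calcium channels, all 3 CaV2 genes and all 3 CaV3 genes had values below 0 at 10% LA. So did 52.2% of all kept clusters, and the values of Cacna1h and Cacna1i were within 1 SE of 0. Cacna1a, Cacna1b and Cacna1g had an unadjusted p under 0.05, where 7.12% of all kept clusters were lower at that limit. None of them passed the adjusted test. Cacna1g (TC1100003562.mm.2) encodes CaV3.1, a T-type channel. It read 8.47, 8.96 and 8.89 in vehicle, 8.42, 8.47 and 8.17 at 1% LA and 7.86, 8.12 and 7.37 at 10% LA. The 10% arrays lay below both other groups, and the 1% arrays met the lowest vehicle array. The difference was -0.42 ± 0.22 (SE) at 1% LA (adjusted p = 0.461) and -0.99 ± 0.22 at 10% LA (unadjusted p = 0.000865, adjusted p = 0.312). In the series matrix it was -0.16 at 1% LA and -0.68 at 10% LA. There the third vehicle array read 8.22, the lowest 1% array 8.23 and the highest 10% array 8.25. The 10% arrays thus overlapped with both other groups in that version.

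Cacna1a (TC0800000955.mm.2) encodes CaV2.1, the P/Q-type channel that supports transmitter release at most central synapses. It read 13.02, 13.15 and 13.15 in vehicle, 12.57, 12.62 and 12.67 at 1% LA and 12.27, 12.83 and 12.60 at 10% LA. All 6 LA arrays were below all vehicle arrays, and the 3 vehicle arrays lay within 0.13 of each other. The difference was -0.49 ± 0.18 (SE) at 1% LA and -0.54 ± 0.18 at 10% LA, with adjusted p of 0.368 and 0.312. The series matrix gives -0.35 and -0.37. There the third vehicle array read 12.71, and the 10% arrays, up to 12.88, overlapped with vehicle.

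Cacna1b (TC0200003118.mm.2) encodes the N-type channel CaV2.2, which shares presynaptic release with CaV2.1. It read 13.54, 13.46 and 13.83 in vehicle, 13.50, 13.66 and 12.75 at 1% LA and 12.91, 13.42 and 12.81 at 10% LA. Its 10% arrays lay below the vehicle arrays, by as little as 13.42 against 13.46, and the third 1% array stood apart from the other two. The difference was -0.31 ± 0.26 (SE) at 1% LA and -0.56 ± 0.26 at 10% LA (adjusted p = 0.356), and in the series matrix it was -0.10 and -0.35. In that version the third vehicle array read 13.16, and the 10% arrays, up to 13.35, overlapped with vehicle. Cacna1e (TC0100003294.mm.2), the R-type channel CaV2.3, read 14.00, 13.82 and 14.07 in vehicle, 14.12, 14.09 and 14.27 at 1% LA and 13.84, 13.64 and 13.64 at 10% LA. Its 1% arrays lay above and its 10% arrays mostly below vehicle, with differences of 0.20 and -0.26, and of 0.20 and -0.23 in the series matrix.

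The L-type channels Cacna1c, which carries much of the calcium that signals to the nucleus, and Cacna1d, which opens at less depolarised voltages, had no unadjusted p under 0.05. Cacna1c differed by 0.05 at 1% LA and -0.06 at 10% LA, within 95% intervals of -0.28 to 0.39 and -0.40 to 0.28, and by 0.07 and -0.04 in the series matrix. Cacna1d differed by -0.32 and -0.39 in the signal table and by 0.02 and -0.06 in the series matrix. Of the other T-type genes, Cacna1h differed at 1% and 10% LA by -0.12 and -0.11, and Cacna1i by -0.19 and -0.09. The series matrix gives -0.12 and -0.09 for Cacna1h and -0.16 and -0.06 for Cacna1i.

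Cacnb1 (TC1100003664.mm.2), whose beta subunit holds the alpha subunit at the membrane, led the auxiliary subunits. It read 13, 13.41 and 13.44 in vehicle, 12.63, 12.91 and 12.75 at 1% LA and 12.66, 12.89 and 12.33 at 10% LA. Every LA array was below every vehicle array. The difference was -0.52 ± 0.20 (SE) at 1% LA and -0.66 ± 0.20 at 10% LA, with adjusted p of 0.376 and 0.312, and in the series matrix it was -0.40 and -0.52. Among the other beta subunits, Cacnb3 differed by -0.25 at 1% LA and -0.35 at 10% LA and Cacnb4 by -0.38 at 1% LA and -0.16 at 10% LA. Cacnb2 differed by 0.38 at 1% LA and 0.36 at 10% LA, and none of these 3 had an unadjusted p under 0.05. At the same doses the series matrix gives -0.09 and -0.19 for Cacnb3, -0.21 and 0.03 for Cacnb4 and 0.22 and 0.18 for Cacnb2.

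The alpha2delta subunits are extracellular proteins that raise channel delivery to the membrane, and some of them bind the gabapentinoid drugs. All 3 kept genes had values below 0 at both doses, as did 50.7% of all kept clusters at 1% LA and 52.2% at 10% LA. Cacna2d3 (TC1400001643.mm.2) read 12.07, 12.10 and 12.28 in vehicle, 11.74, 11.71 and 11.88 at 1% LA and 11.70, 12.14 and 11.58 at 10% LA. Its 1% arrays lay below vehicle and its 10% arrays overlapped with it. The difference was -0.37 ± 0.18 (SE) at 1% LA and -0.34 ± 0.18 at 10% LA, and -0.36 ± 0.16 for both doses (unadjusted p = 0.0446, adjusted p = 0.278). The third vehicle array read 11.71 in the series matrix, where the 1% arrays overlapped with vehicle. The differences there were -0.22 at 1% LA, -0.19 at 10% LA and -0.20 for both doses (unadjusted p = 0.246). Cacna2d1 differed by -0.11 at 1% LA and -0.27 at 10% LA, and Cacna2d2 by -0.13 and -0.12 at these doses. The series matrix gives -0.03 and -0.15 for Cacna2d1 and -0.16 and -0.13 for Cacna2d2.

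The gamma family, of which Cacng2, Cacng3, Cacng4, Cacng5, Cacng7 and Cacng8 are known mainly as partners of AMPA receptors, spanned -0.23 to 0.38 at the 2 doses, and -0.29 to 0.34 in the series matrix, with 0 of 6 under an unadjusted p of 0.05 in the signal table. Cacng2, which encodes stargazin, read 11.96, 10.54 and 10.95 in vehicle, 10.89, 11.23 and 11.51 at 1% LA and 11.18, 11.03 and 11.50 at 10% LA. Its vehicle arrays spread over more than the LA arrays did. Cacng8, a partner that is abundant in the hippocampus, differed by -0.09 at 1% LA and -0.22 at 10% LA, and by -0.06 and -0.29 in the series matrix. Cacng3 differed by -0.23 and -0.15 in the signal table and by 0.04 and 0.08 in the series matrix.

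Pooling both doses against vehicle narrowed the standard errors and left 7 channel genes at an unadjusted p under 0.05. The log2 difference was 0.47 ± 0.15 (SE) for Scn9a, -0.54 ± 0.17 for Scn8a, -0.51 ± 0.15 for Cacna1a, -0.59 ± 0.17 for Cacnb1 and -0.71 ± 0.19 for Cacna1g, each with an adjusted p of 0.203 in limma. In all but Cacna1g the 6 LA arrays lay wholly to 1 side of the 3 vehicle arrays, as did those of Scn3a, and 6.27% of all kept clusters were so divided. A left-out array and a weighted fit changed these calls. Without vehicle replicate 1, Cacna1g (-0.86, adjusted p = 0.0362) and Cacnb1 (-0.73, adjusted p = 0.0396) passed in the pooled comparison and Cacna1g (-1.14, adjusted p = 0.0334) at 10% LA. The share of all kept clusters that passed without that array is not given here, so these calls are not shown to be particular to channel genes. With limma's array weights, Cacna1a (adjusted p = 0.0483), Cacna1g (0.0365) and Cacnb1 (0.0392) passed in the pooled comparison, among 799 clusters of the whole array. In the series matrix the pooled differences were 0.29 for Scn9a, -0.18 for Scn8a, -0.36 for Cacna1a, -0.46 for Cacnb1 and -0.42 for Cacna1g. There Cacnb1 alone of Scn9a, Scn3a, Scn8a, Cacna1a and Cacnb1 had all 6 LA arrays to 1 side of the vehicle arrays.

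By class, pore-forming and auxiliary subunits had like medians. The median log2 difference was -0.13 for the 14 kept pore-forming clusters and -0.13 for the 17 auxiliary ones at 1% LA, and -0.11 and -0.12 at 10% LA. Over all kept clusters the median was -0.00 at 1% LA and -0.02 at 10% LA. Values below 0 were found for 21 of 31 channel clusters at each dose, where 50.7% and 52.2% of all kept clusters lay below 0. Pore-forming clusters supplied 4 of the 5 with an unadjusted p under 0.05 at 1% LA and 4 of 5 at 10% LA. Cacnb1 was the 1 auxiliary gene each time, and 11.9% and 13.9% of all kept clusters passed. The series matrix had 1 pore-forming and 0 auxiliary clusters at that limit at 1% LA, and 1 of each at 10% LA. Of all kept clusters 4.81% and 5.74% passed in that version. In the series matrix the pore-forming median was 0.02 at 1% LA and -0.06 at 10% LA, and the auxiliary median -0.09 and -0.07. The classes are described here and their difference was not tested.

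**Figure D3:**
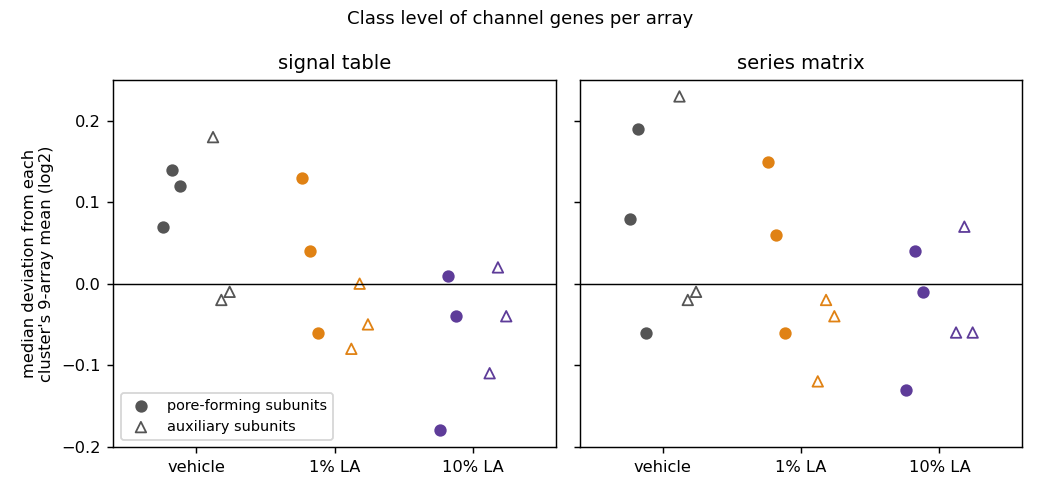
Median deviation from each cluster's own mean over the 9 arrays (vertical axis, log2 units) of the 14 kept pore-forming and 17 kept auxiliary clusters, 1 point per array, for the signal table and the series matrix. In the signal table the pore-forming level was 0.07 to 0.14 in vehicle, -0.06 to 0.13 at 1% LA and -0.18 to 0.01 at 10% LA.

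Between the doses, 3 genes had an unadjusted p under 0.05 and all 3 were pore-forming and lower at 10% LA. The log2 difference of 10% minus 1% LA was -0.45 ± 0.16 (SE) for Cacna1e (unadjusted p = 0.0158), -0.57 ± 0.22 for Cacna1g (0.0253) and -0.38 ± 0.17 for Scn9a (0.0452). The adjusted p was 1 for each. In all 3 genes the 10% arrays lay wholly below the 1% arrays in the signal table, which was the case for 3.51% of all kept clusters and 3 of 31 channel clusters. In the series matrix this held for Cacna1e and Scn9a, while the doses overlapped for Cacna1g. The series matrix, whose values for these 6 arrays differ by at most 0.347 log2 units for any channel cluster, gives -0.43, -0.51 and -0.35, and there Cacna1e alone of the channel genes passed an unadjusted p of 0.05, against 2.37% of all kept clusters. Over the 31 kept channel clusters the 95% interval of the dose difference reached 0.34 to 0.85 log2 units to either side, so smaller differences could not be told from 0 with 3 arrays a group.

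The authors' deposited table of comparisons gives an unadjusted p under 0.05 to 5 of the 40 channel clusters at each dose. The smallest adjusted p there was 0.4442 at 1% LA and 0.411 at 10% LA. The share of all clusters that passed there is not given here, with or without a limit on fold. These counts are therefore not shown to be particular to channel genes. Cacna1g at 10% LA was the 1 gene that also passed a linear fold of 2 in the authors' deposited table. Its fold there was -2.16 (the minus sign marks a lower value in LA). The authors' averages for it, 7.81 at 10% LA and 8.93 in vehicle, are not the means computed here, 7.78 and 8.77. Its log2 difference here was -0.99, just short of that limit. The authors' folds are thus not on the same measure as the differences here. From the group means computed here 0 channel genes reached both limits, where 1.42% of all kept clusters did at 1% LA, 1.1% at 10% LA, 0.0751% between the doses and 1.19% for both doses. The authors' deposited table gives Scn9a a fold of 1.67 at 1% LA, and Cacnb1 -1.58 at 1% LA and -1.73 at 10% LA.

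Genes that place or regulate these channels were read from lists of partners. Of 14 kept genes of the sodium channel and initial segment list, 2 were higher and 3 lower at 1% LA at an unadjusted p under 0.05, where 6.33% of all kept clusters were higher and 5.6% lower, and 0 passed the adjusted test. Ank3, which encodes ankyrin-G, differed by 0.80 ± 0.28 (SE) at 1% LA and 0.89 ± 0.28 at 10% LA, and Fgf14, a cytoplasmic regulator of sodium channels, by 0.70 ± 0.27 and 0.76 ± 0.27. Sptbn4, the spectrin of the initial segment, differed by -0.99 ± 0.22 and -0.71 ± 0.22. Sptbn4 read 9.07, 9.34 and 9.99 in vehicle, 8.65, 8.44 and 8.35 at 1% LA and 8.69, 8.76 and 8.82 at 10% LA, below vehicle on every LA array in the signal table. At 1% and 10% LA, Cntn2, an axonal adhesion protein, differed by -0.78 and -0.61 and Fgf12, another cytoplasmic sodium channel regulator, by -0.58 and -0.37. In the series matrix the differences at 1% and 10% LA were 0.34 and 0.46 for Ank3, 0.48 and 0.51 for Fgf14, and -0.48 and -0.26 for Sptbn4. The third vehicle array read 8.46 for Sptbn4 there and lay among the LA arrays. They were -0.82 and -0.61 for Cntn2 and -0.20 and -0.08 for Fgf12.

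Of 12 kept genes of the calcium channel partner list, 0 were higher and 2 lower at 1% LA at an unadjusted p under 0.05, against 6.33% and 5.6% of all kept clusters. At 10% LA 1 was higher and 2 were lower, against 6.79% and 7.12%. Cabp1, a calcium-binding regulator of calcium channels, differed by -1.27 ± 0.38 (SE) at 1% LA and -1.14 ± 0.38 at 10% LA. It read 12.20, 13.21 and 13.75 in vehicle, 11.75, 12.21 and 11.39 at 1% LA and 11.95, 12.45 and 11.35 at 10% LA, and only the first vehicle array overlapped with the LA arrays. Rimbp2, which tethers channels at release sites, differed by -0.49 at 1% LA and -0.60 at 10% LA, and Rims1, an active zone scaffold, by 0.42 and 0.65 at these doses. The series matrix gives -0.72 and -0.56 for Cabp1, -0.26 and -0.31 for Rimbp2 and 0.28 and 0.51 for Rims1. Of the sodium leak channel complex, Nalcn differed by 0.56 at 1% LA (unadjusted p = 0.0478) and by 0.27 in the series matrix, and of the sperm calcium channel complex 0 of 3 kept genes passed that limit.

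Markers of other cell types also differed between the groups, by amounts that depend on the version of the third vehicle array. The level of a marker list, its median deviation from each gene's own mean over the 9 arrays, is given in log2 units. Counts are at an unadjusted p under 0.05 in the signal table, where 6.33% of all kept clusters were higher and 5.6% lower at 1% LA and 6.79% higher and 7.12% lower at 10% LA. For 13 kept choroid plexus markers the level was -2.53 to 0.45 in vehicle, 0.85 to 2.38 at 1% LA and -1.44 to 1.64 at 10% LA, with 13 higher at 1% LA and 6 at 10% LA. The third vehicle array was at -2.17 in the signal table and at 1.43 in the series matrix, where vehicle and LA overlapped, and the list's median difference there was 1.84 at 1% LA and 0.29 at 10% LA, against 3.20 and 1.77 in the signal table. For 7 oligodendrocyte precursor markers the level was -0.49 to -0.09 in vehicle, 0.13 to 0.27 at 1% LA and -0.14 to 0.53 at 10% LA, with 6 and 5 of 7 higher. Their median difference was 0.59 at 1% LA and 0.56 at 10% LA, and 0.51 and 0.46 in the series matrix. For 8 microglia markers the level was -0.81 to -0.06 in vehicle, 0.02 to 0.20 at 1% LA and -0.05 to 0.76 at 10% LA, with 3 and 4 of 8 higher. Their median difference was 0.47 and 0.71, and 0.25 and 0.51 in the series matrix.

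Among neuron types, the level of 6 dentate granule markers was -0.86 to -0.21 in vehicle, 0.00 to 0.49 at 1% LA and -0.11 to 0.26 at 10% LA, with 3 and 2 of 6 higher. The third vehicle array was at -0.86 in the signal table and at 0.18 in the series matrix, and the median difference at 1% LA was 0.72 and 0.30 in these versions. For 7 subiculum and deep cortex markers the level was 0.22 to 0.29 in vehicle, -0.57 to 0.04 at 1% LA and -0.36 to 0.21 at 10% LA, with 3 and 1 of 7 lower. Their median difference was -0.37 at 1% LA and -0.31 at 10% LA in the signal table, and -0.26 and 0.00 in the series matrix. Of 7 excitatory neuron markers 2 were lower at 1% LA, among them Tbr1 at -1.13, and 1 at 10% LA. Of 7 interneuron markers Pvalb was lower at 1% LA, at -0.75, and 0 passed at 10% LA. In the series matrix Tbr1 differed by -0.66 and Pvalb by -0.57 at 1% LA, with unadjusted p of 0.0619 and 0.119 in limma. The level of the 8 general neuron markers lay between -0.13 and 0.13 on every array. Single markers spread more, as Stmn2 did in vehicle, at 15.50, 14.29 and 14.99 in the series matrix. At either dose 0 of the 8 had an unadjusted p under 0.05, and of 7 CA1 and CA3 markers 0 passed.

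Of the other lists, 3 of 9 oligodendrocyte markers and 3 of 7 astrocyte markers were higher at 10% LA, and 0 of 9 and 0 of 7 were higher at 1% LA, where 1 astrocyte marker was lower. Of 7 meningeal markers 4 were higher at 1% LA and 0 at 10% LA. The third vehicle array was at -0.92 for oligodendrocytes, -0.73 for astrocytes and -0.75 for meninges in the signal table. In the series matrix it was at 0.42, 0.11 and 0.58. The median difference at 10% LA was 0.58 and 0.11 in these versions for oligodendrocytes, and 0.26 and 0.18 for astrocytes. For the meningeal list at 1% LA it was 1.09 and 0.35. Of 6 endothelial markers 1 was lower at each dose, as was 1 of 2 kept muscle markers. The part of these cell types in the channel differences was not tested.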

How the data were processed

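The members and the lists of partner and marker genes were chosen with earlier results of these data known. Hippocampal RNA of 9 mice (3 per group, 1 array each) was labelled from 100 ng and hybridised to Clariom S mouse arrays, per the labels. Nothing says more of how the replicates were taken, so the p-values measure the spread between these samples. Per the submitters' processing notes and the file headers, the authors made log2 signals by RMA (SST-RMA) in Transcriptome Analysis Console 4.0.2 and tested them with limma; these log2 values were deposited as a signal table, the main source here, and as a series matrix. The fold changes and p-values of the authors' deposited comparisons were copied and not refitted.

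Here limma 3.58.1 (R 4.3.3) was fitted with lmFit and eBayes to the log2 signals of all 9 arrays with 1 mean per group. Clusters were kept above the 40th percentile of mean signal (5.98), which left 13323, and p-values were adjusted by Benjamini-Hochberg over these; all tests are two-sided. A standard error (SE) or 95% interval is that of the fit. With 3 arrays a group, the number of arrays limits the precision. On simulated data for 1% LA minus vehicle over 13323 clusters, the fit recovered 58% of 100 clusters changed by 1 log2 unit and 90% of 100 changed by 2, with 6 false calls. Genes were given per-array values if an unadjusted p was under 0.05 in a comparison with vehicle, or if they are main neuronal subunits on which a result turns; partner genes were named at the same limit. Alternatives were the series matrix, with and without vehicle replicate 3, other filters, a trended robust prior, quantile normalization, the replicate number as a block, array weights, the 2 groups alone, each array left out, and the methods' criteria of an unadjusted p under 0.05 with a fold above 2. Printed coordinates are those of RefSeq promoter windows, and the order of genes on chromosome 2 was read from RefSeq's gene table. Some members are not reported here by name.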

Additional observations from a re-analysis of the deposited data

How the results depend on the processing

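The count of channel genes with an adjusted p under 0.05 was 0 in all 4 comparisons and under every alternative, with these exceptions: limma's array weights gave 3 for both doses against vehicle, and the fits that left out 1 array gave 0 to 1 at 10% LA and 0 to 2 for both doses. The methods' criteria gave 0 channel genes in each comparison. With the series matrix, the counts at an unadjusted p under 0.05 were 1 at 1% LA, 2 at 10% LA, 1 between the doses and 1 for both doses, against 5, 5, 3 and 7 in the signal table. With the series matrix and without vehicle replicate 3 they were 2 at 1% LA and 1 between the doses. Leaving out 1 array at a time gave counts of 2 to 8 at 1% LA, 2 to 6 at 10% LA, 1 to 3 between the doses and 4 to 10 for both doses. The shares of all kept clusters in the fits that left out 1 array are not given here, for adjusted or unadjusted counts. The pore-forming median was 0.019 at 1% LA and -0.017 for both doses in the series matrix, and -0.12 to 0.038 between the doses when 1 array was left out. The cause was not tested. There were 406 recomputed differences of the genes named for an unadjusted p under 0.05, with Scn2a1 counted among them here. Of these, 397 kept their direction and their side of the adjusted threshold, 9 passed it only under the alternative, and 0 turned direction. Scn2a1 supplied 1 of the 9 at 10% LA and 2 for both doses against vehicle. Over all 31 kept channel clusters the series matrix gave the opposite sign for 7 at 1% LA, 9 at 10% LA, 9 for both doses and 0 between the doses.

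No pairing of the samples by replicate number was seen. Deviations from the group means of same-numbered samples correlated at -0.17 to 0.17 over 9 pairs, 2 of them over 0.1. Over 18 other pairs the range was -0.27 to 0.34, with 7 of them over 0.1. Such deviations sum to 0 within a group of 3 arrays, so this check cannot show that the samples were unpaired. With the replicate block the counts at an unadjusted p under 0.05 were 4 at 1% LA, 4 at 10% LA, 3 between the doses and 6 for both doses, and 0 channel genes passed the adjusted threshold. The shares of all kept clusters with the block are not given here. The main limits are 3 arrays a group, standard errors of 0.15 to 0.39 log2 units for the channel genes, and the 2 unequal versions of the third vehicle array.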
